A study of Mus musculus with 9 samples.

Results

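The genes described here are 10 nucleic acid sensors and innate adaptors, chosen by gene symbol: Ddx58, Ifih1, Dhx58, Tlr2, Tlr3, Myd88, Tbk1, Eif2ak2, Zbp1 and Trim25. These genes, like the lists set beside them below, were chosen with earlier results of these data known, so counts among them are a description only. All 10 of 10 had a probe on the Illumina mouse bead array, 11 probes in all of 25697, among 16593 genes with a named probe. They were measured in mouse salivary gland cancer stem cells of strain C57BL/6, isolated as primary cells and grown in DMEM/F12 with KSR. The cells were exposed for 24 h to LF3, to ICG-001 or to the solvent DMSO, with 3 arrays a group and 9 in all. The series names both compounds Wnt inhibitors: as background, LF3 interferes with the contact between β-catenin and its DNA-binding partner TCF4, whereas ICG-001 targets CBP, a coactivator of β-catenin. Doses are not given in the labels, so the compounds cannot be set against each other at a matched dose. The labels do not say whether the 3 samples of a group were separate cultures, so p-values measure the spread between these samples only, which may be technical. The comparisons of LF3 and of ICG-001 with DMSO share the 3 DMSO arrays.

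Cells sense foreign or misplaced nucleic acid through a small number of receptors. RIG-I (encoded by Ddx58) and MDA5 (Ifih1) are cytosolic helicases that bind viral double-stranded RNA and signal through the mitochondrial adaptor MAVS to the kinase TBK1, which phosphorylates IRF3 and starts transcription of type I interferon. LGP2 (Dhx58) is a related helicase without the signalling domains, and TRIM25 is a ubiquitin ligase described as an activator of RIG-I. TLR3 detects double-stranded RNA in endosomes and TLR2 detects microbial lipoproteins at the cell surface, and TLR2 signals through the adaptor MyD88. PKR (Eif2ak2) binds double-stranded RNA and phosphorylates eIF2α, and ZBP1 binds Z-form nucleic acid. Several of these genes are themselves induced by interferon, so their transcripts can lie upstream or downstream of an interferon response.

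A probe was counted as detected on an array at a detection p-value under 0.01, and 9939 to 10897 probes were detected per array. Mean deposited signal was 340.0 to 396.5 on LF3 arrays, 368.3 to 409.4 on ICG-001 arrays and 398.2 to 467.3 on DMSO arrays. Levels below are normalized log2 intensities after background correction, given per array or as mean ± SD with n = 3. Genes detected on at least 3 of the 9 arrays were tested with limma, 7354 in all, and passed at a Benjamini-Hochberg adjusted p under 0.05 over all of them. Of the 10 genes 7 entered the test. Ddx58, Tlr2, Myd88, Tbk1, Eif2ak2 and Zbp1 were detected on 9 of 9 arrays and Trim25 on 8, so none of the 7 entered through 1 group alone. Ifih1 and Tlr3 were detected on 0 of 9 arrays and Dhx58 on 1, and these 3 were not tested. Each of them had 1 probe. Here and below, an undetected probe may have failed, so it does not show that its gene is silent.

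The labelled cell type was checked against markers. Of the epithelial markers on the array 2 of 10 were detected on any array, Krt8 and Cldn7, and Cdh1, Krt5, Krt14 and Krt18 were detected on none. Of 5 surface markers used for salivary tumour stem cells, Itgb1, Itga6 and Cd44 were detected, and Cd24a and Prom1 were not. Cldn7 was at 0.53 under LF3 (adjusted p = 0.0467, not passed under median scaling or with the authors' processed values), and Cd44 and Itga6 were at 0.54 (adjusted p = 0.00149) and 0.44 (adjusted p = 0.0424) under ICG-001, where 1 of the 3 stem cell markers passed under median scaling. Of 10 fibroblast markers Pdgfra was detected on 9 of 9 arrays and Col1a1 on 2 LF3, 0 ICG-001 and 3 DMSO arrays. Col1a1 fell by at least 1.47-fold under ICG-001 (adjusted p = 0.000309). Of 7 endothelial markers only Tie1 was detected, on the 3 DMSO arrays. It was lower by at least 1.08-fold under LF3 and at least 1.11-fold under ICG-001. Tie1 entered the test through the DMSO arrays alone, so its p-values are not given. Its call under LF3 was lost with the authors' processed values. Of 18 macrophage and leukocyte markers 13 were detected on no array, among them Ptprc, Adgre1, Itgam and Tyrobp. The 5 detected were Laptm5 and Lyz1 on 9 of 9 arrays, Mrc1 on 9, Lyz2 on 7 and Cd74 on 3. The summed normalized intensity of that list was 3946 to 4831 on LF3 arrays, 4825 to 4909 on ICG-001 arrays and 5036 to 5614 on DMSO arrays. Most of that sum was Laptm5, a lysosomal membrane protein gene of blood cells, and without it the sum was 497 to 550 on LF3 arrays, 666 to 710 on ICG-001 arrays and 582 to 612 on DMSO arrays. In this list 2 of 5 tested genes rose under ICG-001, against 19.3% of all genes. Mrc1 rose by 0.58 on the log2 scale (limma adjusted p = 0.00311) and Cd74 by at least 1.29-fold. Cd74 was detected on the ICG-001 arrays only and entered the test through them, so its p-values are not given. Under LF3 Mrc1 fell by 0.94 (limma adjusted p = 0.000363), and Cd74 was at 0.36 with no LF3 or DMSO array detecting it. With median scaling 0 genes of this list passed as higher under LF3 and 4 as lower, against 211 and 2174 of all 7354 genes. The part of these markers in the results below was not tested.

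Under LF3 3 of the 7 tested genes fell and 0 rose: the lipoprotein receptor Tlr2, its adaptor Myd88 and the RNA-activated kinase Eif2ak2. Over all 7354 genes 23.4% passed in this comparison, 11.7% as higher and 11.7% as lower. With median scaling 5 of the 7 fell under LF3, and the calls over all genes were 211 higher and 2174 lower, against 857 and 863. That scaling aligned the median of all 25697 probes, most of which were not detected, so it aligned a level near background. Without single arrays the count over all genes lay between 955, without the second DMSO array, and 1955. Under ICG-001 3 of 7 rose, the RNA helicase Ddx58, the kinase Eif2ak2 and the ubiquitin ligase Trim25, and 2 fell, Tlr2 and the kinase Tbk1, with 38.8% of all genes passing, 19.3% as higher and 19.5% as lower. Between the compounds 5 of 7 were lower under LF3 than under ICG-001 and 0 were higher, with 40.5% of all genes passing, 20.6% as higher and 19.9% as lower. The F test among the 3 groups was passed by 6 of 7, all except Zbp1, and by 53.7% of all genes. In bulk RNA, fewer cells of a type and less RNA per cell cannot be told apart.

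**Figure D1:**
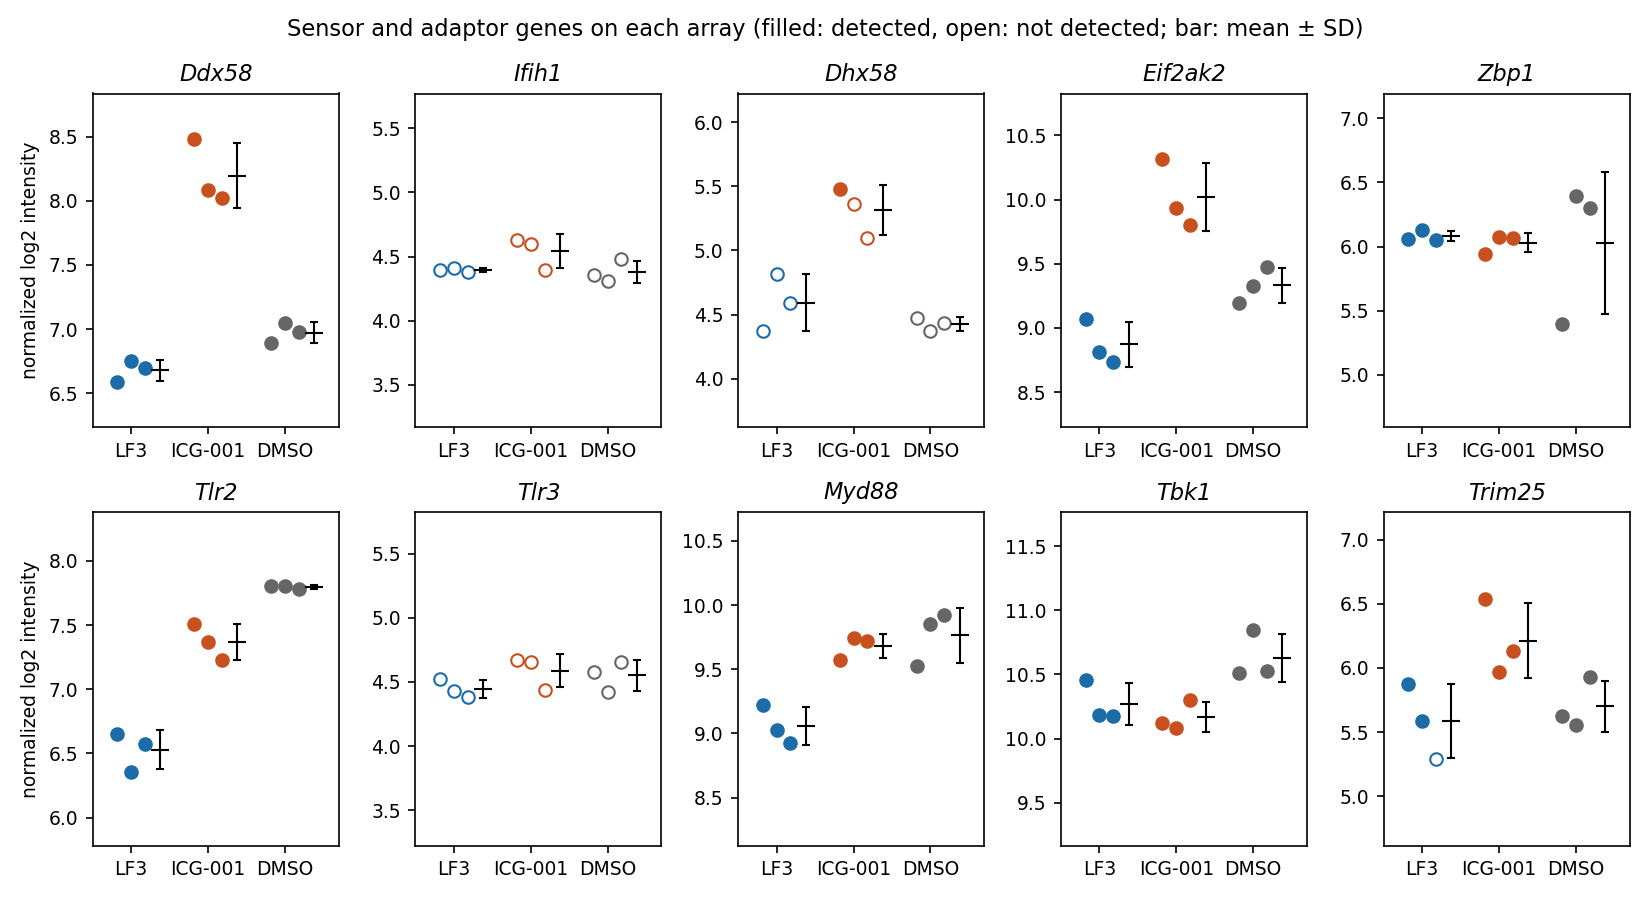
Normalized log2 intensity (y axis, the same span in every panel) of each of the 10 genes on the 3 LF3, 3 ICG-001 and 3 DMSO arrays, filled where the probe was detected and open where not, with the mean ± SD beside each group. Ddx58 and Eif2ak2 stand highest on the ICG-001 arrays, Tlr2 and Myd88 lowest on the LF3 arrays, and Ifih1 and Tlr3 are open throughout.

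Ddx58, which encodes RIG-I, stood at 6.59, 6.75 and 6.70 on the LF3 arrays, 8.48, 8.08 and 8.02 on the ICG-001 arrays, and 6.89, 7.05 and 6.98 on the DMSO arrays. Every ICG-001 array lay above every other array, and every LF3 array lay below every DMSO array. Ddx58 rose 2.34-fold under ICG-001 (8.20 ± 0.25 against 6.97 ± 0.08 in DMSO, log2 difference 1.22, SE 0.13, limma adjusted p = 9.77e-06). Without the first ICG-001 array, the highest of the 3, the difference was 1.08 (adjusted p = 4.70e-05). Under LF3 the difference from DMSO was -0.30 (SE 0.13, 95% interval -0.58 to -0.01, adjusted p = 0.119), which did not pass. The level under LF3 was 2.87-fold lower than under ICG-001 (log2 difference -1.52, adjusted p = 2.14e-06).

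The probes of the other RIG-I-like receptor genes were at or near background. Ifih1, which encodes MDA5, had deposited signals of 44.9 to 59.3 with detection p-values of 0.14286 to 0.84712 over the 9 arrays, so its level was not measurable in any group. Dhx58, which encodes LGP2, stood at 4.37, 4.82 and 4.59 on the LF3 arrays, 5.48, 5.36 and 5.10 on the ICG-001 arrays, and 4.47, 4.37 and 4.44 on the DMSO arrays. All 3 ICG-001 arrays lay above the other 6, although the probe was detected on the first of them only, where the detection p was 0.00376, against 0.01128 and 0.03008 on the other two. With detection taken at a p under 0.05 it entered the test through the ICG-001 arrays alone, so its p-value there is not given. The log2 difference from DMSO was 0.89, which rests on signals near background. The ICG-001 mean was 1.06-fold the lowest detected level of the DMSO arrays and 0.96-fold that of the LF3 arrays. With only the first ICG-001 array detected, that mean is itself not a measured level, so no least difference is given.

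Trim25, the ubiquitin ligase of this pathway, stood at 5.87, 5.59 and 5.29 on the LF3 arrays, the last not detected, 6.54, 5.97 and 6.13 on the ICG-001 arrays, and 5.62, 5.55 and 5.93 on the DMSO arrays. The lowest ICG-001 array was only just above the highest DMSO array. Trim25 rose 1.43-fold under ICG-001 (log2 difference 0.51, SE 0.17, limma adjusted p = 0.0312). That call ended without the first ICG-001 array (0.35, adjusted p = 0.148), the third (0.55, adjusted p = 0.0510), the first DMSO array (0.47, adjusted p = 0.0783) or the second (0.44, adjusted p = 0.112). It was at -0.12 under LF3 (95% interval -0.49 to 0.26, adjusted p = 0.664) and was 1.55-fold lower under LF3 than under ICG-001 (adjusted p = 0.0106). The call between the compounds also ended without the first ICG-001 array (-0.47, adjusted p = 0.0573).

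Eif2ak2, which encodes PKR, moved in opposite directions under the compounds. It stood at 9.07, 8.81 and 8.74 on the LF3 arrays, 10.32, 9.94 and 9.80 on the ICG-001 arrays, and 9.19, 9.33 and 9.47 on the DMSO arrays, with no overlap between any 2 groups. It rose 1.61-fold under ICG-001 (log2 difference 0.69, SE 0.15, limma adjusted p = 0.00224) and was at 0.54 without the first ICG-001 array (adjusted p = 0.0129). It fell by 0.46 on the log2 scale under LF3 (SE 0.15, adjusted p = 0.0365). The call under LF3 ended without the second LF3 array (-0.43, adjusted p = 0.103), the third LF3 array (-0.39, adjusted p = 0.102), the second DMSO array (-0.46, adjusted p = 0.0931) or the third DMSO array (-0.39, adjusted p = 0.133). Set against each other, LF3 was 2.21-fold below ICG-001 (adjusted p = 5.54e-05).

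Of the other kinases of eIF2α, Eif2ak1, the heme-regulated kinase, and Eif2ak3, the kinase PERK of the endoplasmic reticulum, were detected, and Eif2ak4 was not. Eif2ak1 fell by 0.63 under LF3 (adjusted p = 0.0254) and was at 0.03 under ICG-001 (adjusted p = 0.902). Eif2ak3 fell by 0.43 under ICG-001 (adjusted p = 0.0203) and was at 0.05 under LF3 (adjusted p = 0.827).

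Zbp1, the Z-form nucleic acid sensor, was measured by 2 probes. One was detected on 9 of 9 arrays, at 6.06, 6.13 and 6.05 on the LF3 arrays, 5.94, 6.07 and 6.07 on the ICG-001 arrays, and 5.39, 6.39 and 6.30 on the DMSO arrays. The first DMSO array lay below all others and the other two lay above all others, so the DMSO spread (SD 0.55) covered both treated groups. Zbp1 differed from DMSO by 0.05 under LF3 (95% interval -0.38 to 0.48, adjusted p = 0.877) and by 0.00 under ICG-001 (95% interval -0.43 to 0.43, adjusted p = 0.997). Without the first DMSO array the ICG-001 difference was -0.32 and passed (adjusted p = 0.0409), and the LF3 difference was -0.27 (adjusted p = 0.0965). The second probe was detected on 0 of 9 arrays, with signals of 45.3 to 62.0.

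RefSeq promoters, 250 bases before to 50 after each annotated start in build GRCm38.p6, were found for 8 of the 10 genes: Ddx58, Ifih1, Tlr2, Tlr3, Myd88, Tbk1, Eif2ak2 and Trim25. They were searched on both strands for the core of the interferon-stimulated response element, GAAA followed by any 2 bases and GAAA, which is bound by IRF-containing complexes, and for the gamma-activated site, TTCNNNGAA, which is bound by STAT dimers. The first motif was present in 4 of the 8, Ddx58, Ifih1, Myd88 and Eif2ak2, and in 3.44% of all 32851 promoters of the same length. The second was present in 2 of the 8, Myd88 and Eif2ak2, and in 8.30% of all promoters. The windows of the 3 genes that hold the first motif and were tested are shown, since 2 of them rose under ICG-001 while the third, Myd88, did not. They lie at chr4:40239776-40240075, minus strand (Ddx58), chr17:78882523-78882822, minus strand (Eif2ak2) and chr9:119339969-119340268, minus strand (Myd88), are written in the direction of transcription, and have the matched letters in capitals.
Ddx58: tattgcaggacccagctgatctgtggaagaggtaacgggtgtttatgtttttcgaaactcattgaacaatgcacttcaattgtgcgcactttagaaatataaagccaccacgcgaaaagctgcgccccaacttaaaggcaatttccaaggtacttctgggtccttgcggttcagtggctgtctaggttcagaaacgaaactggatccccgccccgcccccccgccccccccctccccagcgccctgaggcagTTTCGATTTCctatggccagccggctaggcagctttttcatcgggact
Eif2ak2: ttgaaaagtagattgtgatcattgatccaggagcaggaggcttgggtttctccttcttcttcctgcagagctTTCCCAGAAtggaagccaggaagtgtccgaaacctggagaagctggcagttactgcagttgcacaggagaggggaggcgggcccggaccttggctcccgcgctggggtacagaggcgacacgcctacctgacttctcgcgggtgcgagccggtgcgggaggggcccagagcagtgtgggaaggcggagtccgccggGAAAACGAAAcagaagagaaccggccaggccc
Myd88: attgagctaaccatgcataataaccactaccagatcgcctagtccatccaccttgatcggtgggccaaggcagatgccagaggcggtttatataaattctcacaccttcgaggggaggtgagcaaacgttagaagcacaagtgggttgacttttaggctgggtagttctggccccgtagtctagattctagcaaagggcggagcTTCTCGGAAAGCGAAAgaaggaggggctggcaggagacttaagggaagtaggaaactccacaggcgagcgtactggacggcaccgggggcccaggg
In Ddx58 the first motif is on the opposite strand and begins 2 bases after the start base, and in Eif2ak2 it begins 18 bases after it. In Myd88 it begins at -40 and overlaps the second motif, which begins at -46, and the second motif of Eif2ak2 begins at -178. Trim25, which also rose under ICG-001, and Tlr2 and Tbk1, which fell, held neither motif in these windows. These matches describe letters only, and no binding was measured here.

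Tlr2, the lipoprotein receptor, fell under both compounds. It stood at 6.65, 6.36 and 6.57 on the LF3 arrays, 7.51, 7.37 and 7.23 on the ICG-001 arrays, and 7.80, 7.80 and 7.78 on the DMSO arrays. No 2 groups overlapped, and the DMSO arrays were nearly equal (SD 0.01). It was 2.41-fold lower under LF3 (log2 difference -1.27, SE 0.12, limma adjusted p = 1.67e-05) and 1.34-fold lower under ICG-001 (-0.43, SE 0.12, adjusted p = 0.0112). The call under ICG-001 ended without the third ICG-001 array (-0.36, adjusted p = 0.0596). The level under LF3 was 1.79-fold below that under ICG-001 (adjusted p = 0.000122). Tlr3, the endosomal receptor for double-stranded RNA, had signals of 50.4 to 64.0 and detection p-values of 0.11905 to 0.60652, so no level was measured in any group.

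Myd88, the adaptor that TLR2 and most other Toll-like receptors use, stood at 9.22, 9.03 and 8.93 on the LF3 arrays, 9.57, 9.74 and 9.72 on the ICG-001 arrays, and 9.52, 9.85 and 9.92 on the DMSO arrays. All 3 LF3 arrays lay below the other 6, while the ICG-001 arrays lay within the DMSO range. Myd88 fell by 0.71 on the log2 scale under LF3, which is 1.63-fold (SE 0.13, limma adjusted p = 0.00231). Under ICG-001 it was at -0.09 (95% interval -0.37 to 0.20, adjusted p = 0.644). The direct difference of LF3 from ICG-001 was -0.62 (adjusted p = 0.00208).

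Tbk1, the kinase on which the RNA and DNA sensing routes converge, stood at 10.45, 10.18 and 10.17 on the LF3 arrays, 10.12, 10.08 and 10.30 on the ICG-001 arrays, and 10.51, 10.85 and 10.53 on the DMSO arrays. All treated arrays lay below all DMSO arrays, and the treated groups overlapped. Tbk1 fell by 0.46 under ICG-001 (SE 0.13, limma adjusted p = 0.0125), a call that ended without the second ICG-001 array (-0.42, adjusted p = 0.0528) or the second DMSO array (-0.35, adjusted p = 0.0698). Under LF3 it was at -0.36 (SE 0.13, adjusted p = 0.0615), which did not pass. LF3 differed from ICG-001 by 0.10 (95% interval -0.18 to 0.38, adjusted p = 0.569). Under ICG-001, then, the kinase gene fell while the sensor genes Ddx58 and Eif2ak2 rose.

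**Figure D2:**
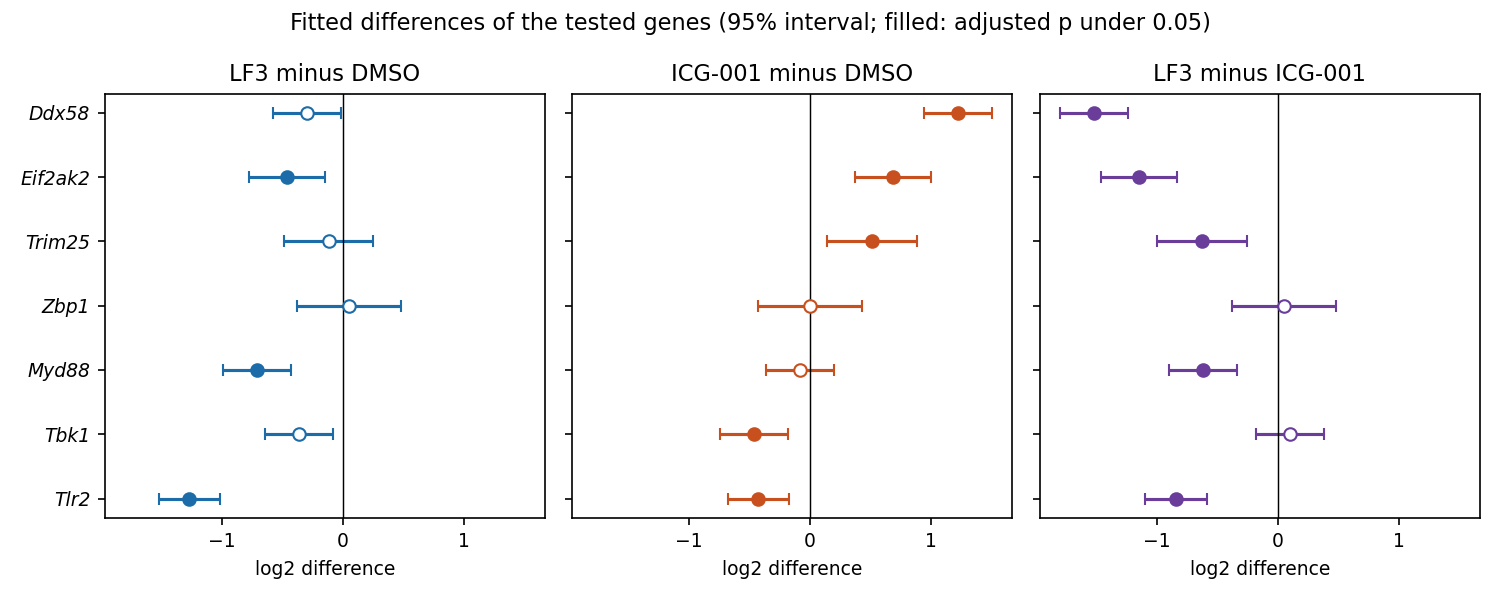
Fitted log2 differences (x axis) of the 7 tested genes in LF3 minus DMSO, ICG-001 minus DMSO and LF3 minus ICG-001, with 95% intervals, filled at an adjusted p under 0.05. In LF3 minus DMSO the filled points are Tlr2, Myd88 and Eif2ak2, all below 0, and in ICG-001 minus DMSO the differences run from -0.46 for Tbk1 to 1.22 for Ddx58.

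The LF3 and DMSO arrays did not overlap for 5 of the 7 genes, all lower under LF3, against 36.8% of all genes, 18.8% higher and 18% lower. The ICG-001 and DMSO arrays did not overlap for 5 of 7, 3 higher and 2 lower under ICG-001, against 50.7% of all genes, 25.7% higher and 25% lower. The LF3 and ICG-001 arrays did not overlap for 5 of 7, all lower under LF3, against 51.6% of all genes, 26% higher and 25.6% lower. The median log2 difference of the 7 genes from DMSO was -0.36 under LF3 and 0.00 under ICG-001, and that of LF3 from ICG-001 was -0.63. Over all 7354 genes these medians were 0.01, -0.00 and 0.00, which quantile normalization itself brings near 0. The first ICG-001 array was the highest of its group for Ddx58, Dhx58, Eif2ak2, Trim25 and Tlr2, but not for Myd88, Tbk1 or Zbp1.

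The rest of the RNA sensing pathway was followed in a list of 30 further genes on the array, 23 of them tested. Under ICG-001 9 rose and 3 fell (list median 0.17, with 38.8% of all genes passing). Under LF3 2 rose and 2 fell (median -0.10, with 23.4% of all genes passing). With median scaling between arrays in place of quantile normalization 6 rose and 4 fell under ICG-001, and 0 rose and 8 fell under LF3. That scaling put 847 of all 7354 genes higher and 1586 lower under ICG-001, and 211 and 2174 under LF3. The 3 with the lowest adjusted p under ICG-001 were oligoadenylate synthetase genes, whose family members make the messenger that activates RNase L, or their relatives. Oasl1 stood at 6.57, 6.59 and 6.63 on the LF3 arrays, 9.00, 8.42 and 8.25 on the ICG-001 arrays, and 6.13, 6.21 and 5.92 on the DMSO arrays. It rose by 2.48 on the log2 scale under ICG-001 (limma adjusted p = 1.88e-07), with 1.83 and 1.19 on further probes, and by 0.51 under LF3 (adjusted p = 0.0379), where neither further probe passed (0.02 and 0.28). Oasl2 rose by 3.57 (adjusted p = 1.88e-07), and Oas2, detected on 3 ICG-001 arrays and on no other, was at least 2.55-fold higher. Oas2 is counted among the 9 but entered the test through the ICG-001 arrays alone, so its p-value is not given. Under LF3 Dhx9, an RNA helicase, fell by 0.96 (adjusted p = 0.0106), the RNA editing enzyme gene Adarb1 fell by 0.42 (adjusted p = 0.0245, with 0.04 on a second probe), and Ttc37, a subunit of the SKI RNA decay complex, rose by 0.42 (adjusted p = 0.0105).

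Among genes of DNA sensing, 20 were on the array and 11 were tested. Under ICG-001 2 rose and 2 fell (median 0.06, or -0.04 with median scaling), against 38.8% of all genes passing. Under LF3 0 rose and 2 fell (median -0.02), or 3 with median scaling (median -0.33), against 23.4% of all genes with quantile normalization. Median scaling put 2174 of all 7354 genes lower under LF3 and their median at -0.24. Slc19a1, the folate carrier that also imports cyclic dinucleotides, rose by 1.15 under ICG-001 (adjusted p = 4.79e-05) and was at 0.01 under LF3 (adjusted p = 0.983). Polr3b, a subunit of RNA polymerase III, rose by 0.52 under ICG-001 (adjusted p = 0.00349) and fell by 0.56 under LF3 (adjusted p = 0.00478). Hmgb2, a chromatin protein abundant in dividing cells, fell by 0.77 under ICG-001 (adjusted p = 0.00122) and by 0.65 under LF3 (adjusted p = 0.00817). Aim2 and Ifi204, receptors for cytosolic DNA, were detected on 0 of 9 arrays.

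Of 15 other Toll-like receptor genes and partners on the array 6 were tested, and 9 were detected on no array, among them Tlr1 and Tlr6, whose products pair with TLR2. Under ICG-001 2 rose and 2 fell, against 38.8% of all genes passing, and with median scaling 1 rose and 2 fell. Under LF3 0 of 6 passed by limma, against 23.4% of all genes, with 2 lower under median scaling. Over all genes 2707 had an unadjusted p under 0.05 in LF3 minus DMSO. Median scaling put 2174 of all 7354 genes lower under LF3, and 847 higher and 1586 lower under ICG-001. The endotoxin co-receptor genes Cd14 and Ly96 rose under ICG-001 by 0.59 (adjusted p = 0.00211) and 0.50 (adjusted p = 0.0108), while Tlr4, the receptor they serve, fell by 0.42 (adjusted p = 0.0149). Cnpy3, a chaperone of Toll-like receptors, fell by 0.71 (adjusted p = 0.00223, detected on 1 of 3 ICG-001 arrays). The rise of Cd14 and Ly96 was in the direction opposite to that of Tlr2.

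In the list of other adaptors, kinases and ubiquitin ligases 25 of 33 genes on the array were tested. Under ICG-001 5 rose and 2 fell (median 0.11, with 38.8% of all genes passing). Under LF3 5 rose and 4 fell (median -0.08, with 23.4% of all genes passing). With median scaling 1 rose and 2 fell under ICG-001, and 0 rose and 8 fell under LF3. That scaling put 847 of all 7354 genes higher and 1586 lower under ICG-001, and 211 and 2174 under LF3. Nod1, a cytosolic receptor for bacterial peptidoglycan, fell by 1.38 under ICG-001 (adjusted p = 2.67e-06), as did Tab1, a cofactor of the kinase TAK1 (by 0.69, adjusted p = 0.00199), and Mlkl, the pore-forming effector of necroptosis downstream of ZBP1, rose by 0.90 (adjusted p = 7.37e-05). Under LF3 Fadd, a death receptor adaptor, fell by 0.64 (adjusted p = 0.00149), and Tollip, an inhibitor of Toll-like receptor signalling, rose by 0.57 (adjusted p = 0.00284), although another Tollip probe did not pass (0.26, adjusted p = 0.171). Trim21, an intracellular antibody receptor, fell by 1.33 under LF3 on its brightest probe (adjusted p = 0.000177, detected on 1 of 3 LF3 arrays), whereas both further probes of the gene missed the threshold, at -0.09 (adjusted p = 0.754) and 0.13 (adjusted p = 0.710).

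**Figure D3:**
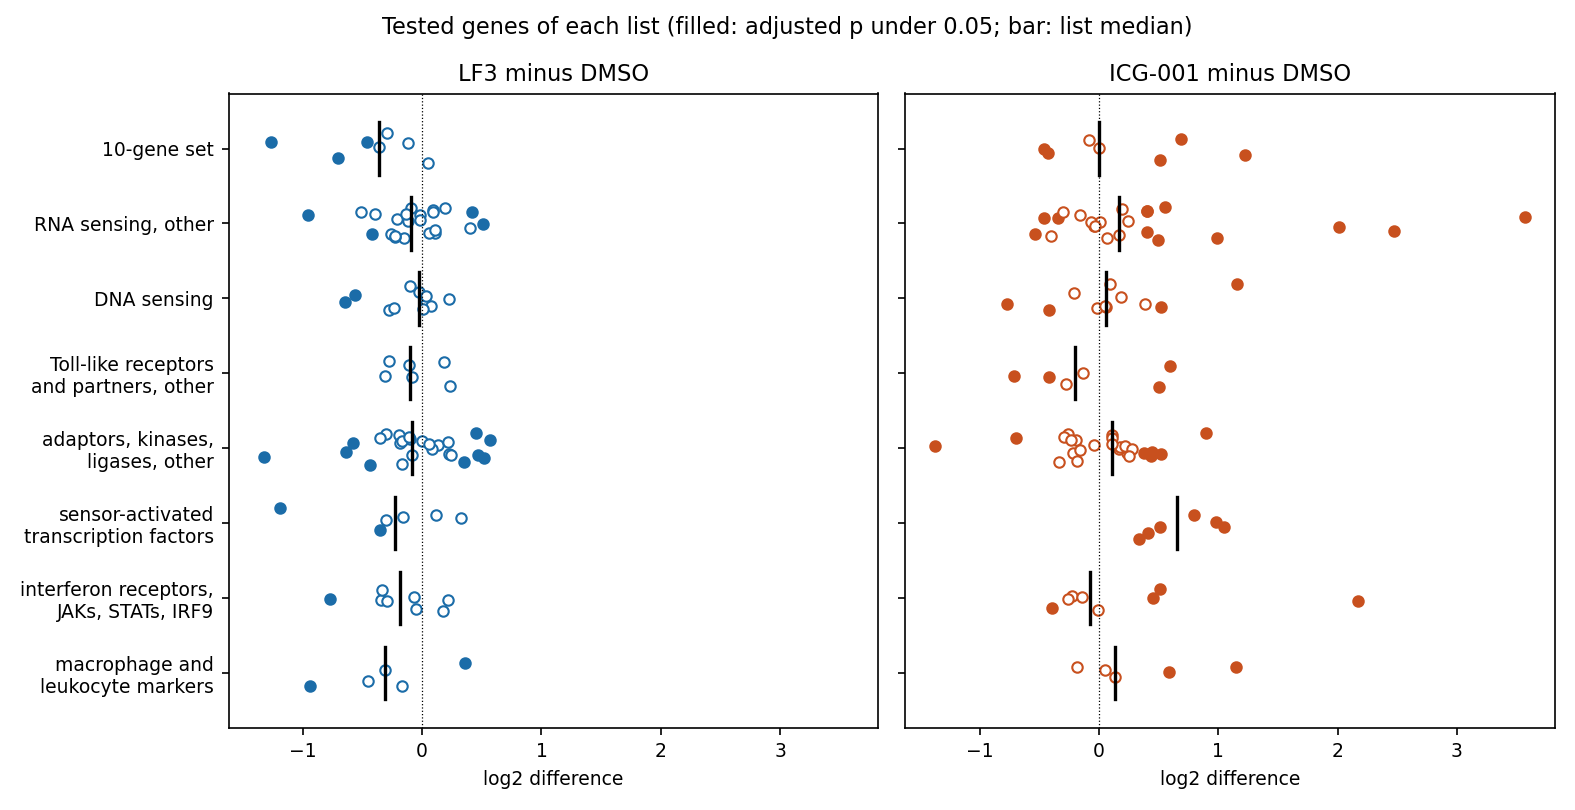
Log2 differences (x axis) of the tested genes of each list in LF3 minus DMSO and ICG-001 minus DMSO, 1 point a gene, filled at an adjusted p under 0.05, with a bar at each list's median. All 6 tested sensor-activated transcription factors are filled and above 0 under ICG-001, and the 3 points farthest to the right in RNA sensing are Oasl2, Oasl1 and Oas2.

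The transcription factors that the sensors activate moved apart between the compounds. Under ICG-001 6 of 6 tested genes rose, against 19.3% of all genes. The list was chosen with earlier results of these data known, so its counts are a description only. Under LF3 0 rose and 2 fell, against 11.7% and 11.7% of all genes. The list medians were 0.65 and -0.23. With median scaling 3 of 6 rose under ICG-001 (median 0.57) and 3 fell under LF3 (median -0.49), while cyclic loess and the authors' processed values gave 6 of 6 and 2. Median scaling put 847 of all 7354 genes higher under ICG-001 and 2174 lower under LF3. Irf1 stood at 9.59, 9.29 and 9.38 on the LF3 arrays, 11.04, 10.96 and 11.08 on the ICG-001 arrays, and 10.61, 10.67 and 10.56 on the DMSO arrays. It fell by 1.19 under LF3 (limma adjusted p = 1.74e-05) and rose by 0.41 under ICG-001 (adjusted p = 0.0105). Its 4 other probes gave -0.55 to -0.83 under LF3, all passing, and 0.27 to 0.52 under ICG-001, of which 1 passed. Irf3, the direct substrate of TBK1, rose by 0.33 under ICG-001 (adjusted p = 0.0405), with 0.29 and 0.34 on 2 other probes that did not pass (adjusted p = 0.149 and 0.171), and was at -0.31 under LF3 (adjusted p = 0.0791). One of those other probes passed under LF3, at -0.78 (adjusted p = 0.00303), and the other gave -0.20 (adjusted p = 0.478).

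Relb, Irf5 and Rela rose under ICG-001 by 1.04 (adjusted p = 1.13e-05), 0.98 (adjusted p = 7.51e-05) and 0.80 (adjusted p = 9.86e-05), and Nfkb2 by 0.51 (adjusted p = 0.0271). Rela fell by 0.35 under LF3 (adjusted p = 0.0372). Irf7, the interferon-induced factor that amplifies interferon transcription, was detected on 2 of 9 arrays and not tested. It stood at 4.47, 4.58 and 4.47 on the LF3 arrays, 6.22, 5.90 and 5.05 on the ICG-001 arrays, and 4.50, 4.34 and 4.37 on the DMSO arrays, at least 1.41-fold higher under ICG-001 than in DMSO.

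Most probes for interferon genes were at background. Of 19 interferon genes on the array 17 were detected on 0 of 9 arrays, among them Ifnb1, the first type I interferon made after sensing, with signals of 45.4 to 66.0 and a lowest detection p of 0.04887. Ifna15 was detected on 1 LF3 array. Ifna6 was detected on 9 of 9 arrays, at 6.51 ± 0.16 in LF3, 6.56 ± 0.06 in ICG-001 and 6.68 ± 0.22 in DMSO, and passed under neither compound (adjusted p = 0.372 under LF3 and 0.495 under ICG-001). The type I interferon genes are close paralogs, so a signal on 1 probe may come from another member.

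Of the genes that receive interferon 9 were on the array and 8 were tested. Under ICG-001 3 were higher and 1 lower (median -0.07, with 38.8% of all genes passing). Under LF3 0 were higher and 1 lower (median -0.18, with 23.4% of all genes passing). With median scaling 1 was higher and 1 lower under ICG-001, and 4 were lower under LF3. That scaling put 847 of all 7354 genes higher and 1586 lower under ICG-001, and 2174 lower under LF3. Irf9, the DNA-binding subunit of the complex ISGF3, stood at 6.00, 6.18 and 6.48 on the LF3 arrays, 8.56, 8.18 and 7.77 on the ICG-001 arrays, and 6.14, 5.90 and 5.96 on the DMSO arrays. It rose by 2.17 under ICG-001 (limma adjusted p = 1.10e-06) and was at 0.22 under LF3 (adjusted p = 0.400). Stat2, its partner, rose by 0.51 under ICG-001 (adjusted p = 0.0384). Ifngr2, the second chain of the interferon-γ receptor, rose by 0.45 (adjusted p = 0.0194), but a second probe of it read 0.05 (adjusted p = 0.862) and a further one -0.40 (adjusted p = 0.0450).

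Ifngr1, the ligand-binding chain of the interferon-γ receptor, fell by 0.40 under ICG-001 (adjusted p = 0.0264) and by 0.77 under LF3 (adjusted p = 0.00122). Il10rb, Jak1, Tyk2 and the type I interferon receptor chain gene Ifnar2 passed under neither compound, with log2 differences of -0.34 to 0.18 under LF3 and -0.26 to -0.01 under ICG-001. A second Ifnar2 probe gave -0.56 under LF3 (adjusted p = 0.0160), and 1 of 2 further Tyk2 probes gave -0.58 under LF3 (adjusted p = 0.0101) and -0.49 under ICG-001 (adjusted p = 0.0134). Ifnar1, the other chain, was detected on 0 of 9 arrays.

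The genes whose levels followed Ddx58, Tlr2 and Eif2ak2 most closely over the 9 arrays, by Pearson correlation, were sought among the 7354 genes. For Ddx58 they were the interferon-induced GTPase gene Gbp3 (r = 0.993), Oasl2 (r = 0.992) and Cd274, which encodes PD-L1 (r = 0.992). Gbp3 and Cd274 were detected on the ICG-001 arrays only and entered the 7354 genes through them, so their coefficients rest on those 3 arrays. They were at least 6.39-fold and at least 2.09-fold higher under ICG-001 than in DMSO. For Tlr2 they were Cdc42ep2, an effector of the GTPase CDC42 (r = 0.974), the splicing factor gene Hnrnpa2b1 (r = 0.974) and the endolysosomal channel gene Tpcn1 (r = 0.970). For Eif2ak2 they were Agfg1 (r = 0.989), Ndufab1, the mitochondrial acyl carrier protein (r = 0.983), and the secreted glycoprotein gene Lgals3bp (r = 0.977). The 9 arrays form 3 treatment groups, so these coefficients mostly describe the group means.

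Among the 7 tested genes Ddx58 and Eif2ak2 had the highest mutual correlation over the same 9 arrays (r = 0.943), followed by Eif2ak2 with Trim25 (r = 0.896) and Tlr2 with Myd88 (r = 0.882). Ddx58 with Tlr2 was at r = 0.362 and Ddx58 with Tbk1 at r = -0.449. These values are a description only.

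**Figure D4:**
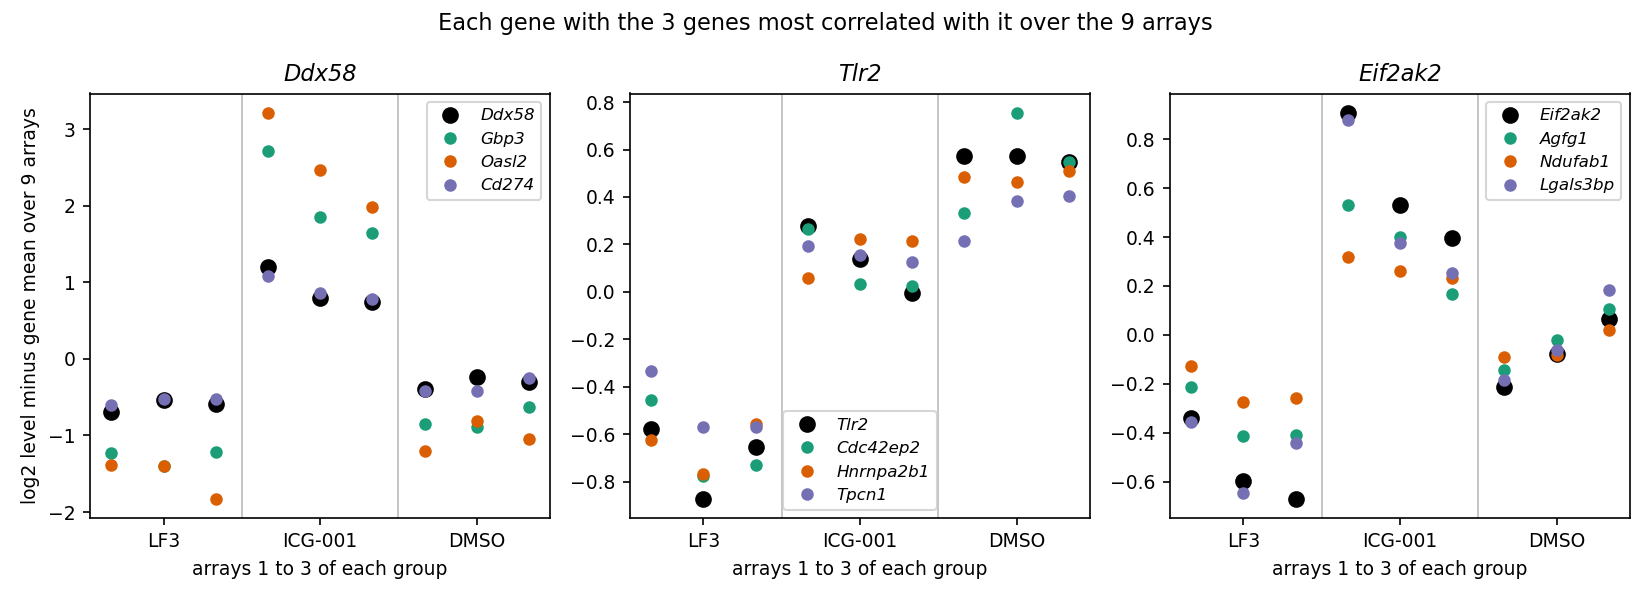
Log2 level minus the gene's mean over the 9 arrays (y axis) on the 3 LF3, 3 ICG-001 and 3 DMSO arrays, for Ddx58, Tlr2 and Eif2ak2 (black) and the 3 genes most correlated with each. Points of Ddx58 and its followers stand apart on the ICG-001 arrays, and those of Tlr2 and its followers are lowest on the LF3 arrays.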

How the data were processed

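Total RNA was labelled as biotinylated cRNA for Illumina bead arrays, per the labels' protocols, and GenomeStudio 2010.1 appears as a tool, without a stated role, per the submitters' processing notes. The deposited table holds, per the file headers, a linear signal intensity and a detection p-value per probe and array, not normalized between arrays. Each deposited detection p-value column was paired with the signal column before it, which orders it most closely of the 9. A second deposited table holds the authors' processed intensities, background-subtracted by their values (lowest -17.5), with array medians of 9.3 to 9.4, and their between-array normalization is not given in the sources used here. 0 columns were left unmapped. The number of arrays limits the precision.

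Probes were named from the platform annotation (23978 with 1 symbol, 0 with several, 1719 with none), which can be old. Background was corrected with normexp using the detection p-values (limma 3.58.1, R 4.3.3; offset 16), followed by log2 and quantile normalization. The offset shrinks differences of dim genes. The brightest kept probe stood for a gene. All 9 arrays entered 1 limma fit (lmFit, eBayes), two-sided, adjusted by Benjamini-Hochberg over 7354 genes. Where no array of the dimmer group detected a probe, "at least" gives the brighter group's mean against, per array, the higher of the lowest detected signal and the probe's own. The fit was tested on simulated data for ICG-001 minus DMSO only, and there more changes of 0.5 on the log2 scale were missed than recovered. Far fewer genes were changed there than were called in the data. This made the adjusted threshold stricter, so that outcome does not carry over to these comparisons. A difference of about that size that did not pass is still no evidence of an unchanged level. Genes outside the 10 were named by rule: in each list the 3 lowest adjusted p that passed under each compound, every detected gene of the interferon, interferon-response, transcription factor and eIF2α kinase lists, and the 3 genes most correlated with the 3 of lowest F test p. Tlr4, Krt8, Pdgfra, Laptm5, Lyz1, Lyz2, Itgb1 and the undetected genes that are named were chosen after their values were seen. The 10 genes and all lists were chosen with earlier results of these data known. The list counts under median scaling, cyclic loess and the authors' processed values were added after the data were seen.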

Additional observations from a re-analysis of the deposited data

How the results depend on the processing

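Each comparison was refitted under 13 other settings and without each of the 9 arrays. Of the called differences of the 10 genes, none changed direction, and Ddx58 and Eif2ak2 under ICG-001, Tlr2 and Myd88 under LF3, and Ddx58, Eif2ak2, Tlr2 and Myd88 between the compounds passed under all 22. Leaving out 1 array gave 955 to 1955 genes called in LF3 minus DMSO (1720 with all arrays), 2246 to 3050 in ICG-001 minus DMSO and 2349 to 3210 in LF3 minus ICG-001. The first count was 1120 without the second LF3 array, 955 without the second DMSO array and 986 without the third DMSO array. Of the 7 tested genes, 2 to 4, 3 to 5 and 4 to 5 were called in these comparisons, with 3 under ICG-001 without the third ICG-001 array or the second DMSO array, and 5 to 6 in the F test. Median scaling aligned the median of all 25697 probes, most of which were not detected on an array, so it aligned a level near background. Differences between arrays in the signal of detected genes were not aligned by it. It put the median of all genes at -0.24 in LF3 minus DMSO and split its calls into 211 higher and 2174 lower, against 857 and 863 with quantile normalization. It gave -0.10 with 847 and 1586 in ICG-001 minus DMSO (1419 and 1435), and -0.14 with 750 and 1983 in LF3 minus ICG-001 (1514 and 1464). Under it 5 of the 7 genes fell with LF3, adding Ddx58 (-0.58, or -0.34 relative to the shifted median) and Tbk1 (-0.58, or -0.34). Tbk1 under LF3 passed under 8 of 22 alternatives. Trim25 under ICG-001 lost its call with median scaling (0.41, adjusted p = 0.0819) and with no filter on dim probes (adjusted p = 0.102), and Eif2ak2 under LF3 with no filter (adjusted p = 0.0857). Trim25 could not be tested among probes detected on all 9 arrays. Signs turned only for differences that had not passed. Zbp1 minus DMSO under ICG-001 was -0.015 without background correction, -0.015 with an offset of 50, -0.10 with median scaling, -0.014 with the authors' processed values, -0.21 with array weights, and -0.32 to 0.18 without single arrays. Zbp1 under LF3 was -0.18 with median scaling, -0.17 with array weights and -0.27 to 0.23 without single arrays, and between the compounds -0.081 with median scaling. Trim25 under LF3 was 0.0076 with array weights and -0.26 to 0.029 without single arrays, and Tbk1 between the compounds was -0.041 with median scaling. No pairing by replicate number was seen: deviations of same-numbered arrays correlated at -0.24 to 0.17, and 4 of 9 arrays correlated best with their own number. With 3 arrays a group this cannot show that none existed. With a replicate block 1592, 2732 and 2873 genes were called, with 3, 5 and 5 of the 7, and no call of the 7 changed. Ifih1 and Tlr3 could not be compared at this signal over background. Causes were not tested.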

Other observations

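Of the genes in the pathway lists, 6 were detected on exactly 1 array. The first ICG-001 array held 4 of them: Dhx58 (5.48), Nlrc5, a NOD-like receptor gene (5.60), Ifi35, an interferon-induced gene (5.62), and Tbkbp1, an adaptor of TBK1 (5.33). For Dhx58 and Nlrc5 the other ICG-001 arrays, at 5.36 and 5.10 and at 5.22 and 5.30, also lay above the highest LF3 array (4.82 and 4.64) and the highest DMSO array (4.47 and 4.38), though not detected. For Tbkbp1 the other ICG-001 arrays, at 4.76 and 4.70, lay below the highest DMSO array (4.96). For Ifi35 they stood at 5.36 and 5.14, and the lower of these lay below the highest DMSO array (5.19). The first ICG-001 array detected 10554 probes of all kinds, and the other ICG-001 arrays 10156 and 10197. Nlrc5, Ifi35 and Tbkbp1 were picked for this pattern and were not tested.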
